A study of Mus musculus with 2 samples.

Results

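Melanocyte regulators and their ligands were followed across the cell classes of the mouse stria vascularis (SV), the epithelium of the cochlear lateral wall. The 9 genes, of 48816 features in the deposited count matrices, were chosen by symbol, with earlier results of these data known. They are the transcription factors Mitf, Pax3 and Sox10, the receptors Met, Ednrb and Kit, and the ligands Hgf, Edn3 and Kitl. Nuclei came from the SV of CBA/J mice at P30 (postnatal day 30) and were captured as 1 library per preservation method. In the MethFix dataset the isolated nuclei were fixed with methanol, and in the RNAlater dataset the tissue was kept in RNAlater before the nuclei were isolated. By the labels each library pooled animals (5 or 6 mice in MethFix, 10 mice in RNAlater, for which the study's methods give a lower number), and no genotype, drug or deletion separated the groups.

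The SV has 3 main cell types. Marginal cells line the endolymph and secrete potassium, basal cells close the layer with tight junctions, and intermediate cells between them are melanocytes that descend from the neural crest and carry the potassium channel behind the endocochlear potential. In the melanocyte lineage, SOX10 and PAX3 activate Mitf, and MITF activates genes of pigment synthesis. Survival, migration and growth of melanocytes depend on ligands that other cells make: KIT ligand (Kitl) for the receptor KIT, endothelin 3 (Edn3) for the endothelin receptor B (Ednrb), and hepatocyte growth factor (Hgf) for MET.

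Each RNA molecule was counted by its unique molecular identifier (UMI), and a level is given in CPM, UMIs of a gene per 1000000 UMIs of a class of nuclei, with its exact 95% Poisson interval in parentheses. The matrices held 4748 and 3868 barcodes in MethFix and RNAlater, with 21027671 and 17681824 UMIs, and 3323 barcodes stood in both, 70.0% and 85.9% of them. After filtering, 3372 and 2311 nuclei were kept, with medians of 3498.5 and 4702 UMIs, and 2256 barcodes were kept in both. Of the 2155 of these that had a name in both, 2099 (97.4%) had the same name, so the libraries are counted as 1 sample, no test or p-value is given, and intervals cover counting error only. Classes were named from marker genes, and 191 (5.66%) and 106 (4.59%) nuclei stayed unnamed. The intermediate class held 854 and 522 nuclei, and all 522 in RNAlater were barcodes that were also named intermediate in MethFix. Marginal nuclei numbered 1080 and 673 and basal nuclei 752 and 604.

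The intermediate class was named by 4 markers, so their levels describe the naming and are no check of it. Tyr, tyrosinase, stood at 4942 CPM in MethFix and 5219.9 in RNAlater. Dct, dopachrome tautomerase, stood at 21367 and 19187. Mlana, a melanosome protein, stood at 64.7 and 69.9, and Kcnj13, an inward rectifier potassium channel, at 211 and 205. Over the other named nuclei the same markers stood at 37.1 and 26.7 (Tyr), 636 and 547 (Dct), 12.1 and 11.8 (Mlana), and 10.7 and 11.4 (Kcnj13). Levels of the 9 genes in another class are also given below as a percentage of their intermediate level, beside the same percentage for the markers. Since the markers named the class, their low percentages are partly set by the naming, and the pairs of values are a description. For these 4 markers it ran from 0.449% to 10.7% in MethFix and from 0.243% to 5.80% in RNAlater in marginal nuclei, and from 1.03% to 36.6% and from 0.918% to 36.2% in basal nuclei, with Mlana the highest in both classes. Slc45a2, a melanosome transporter used neither for clustering nor for naming, stood at 818 and 858 CPM in intermediate nuclei, 13.8 and 13.4 in marginal nuclei and 46.9 and 47.9 in basal nuclei. It comes from a list of targets given below, where Pmel, Tyrp1 and Oca2 had few UMIs in intermediate nuclei. Pmel in basal nuclei stood at 45.9% (5.55 to 166) and 193% (39.8 to 564) of its intermediate level, from 2 and 3 UMIs. The part of free RNA in any value below was not tested.

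**Figure D1:**
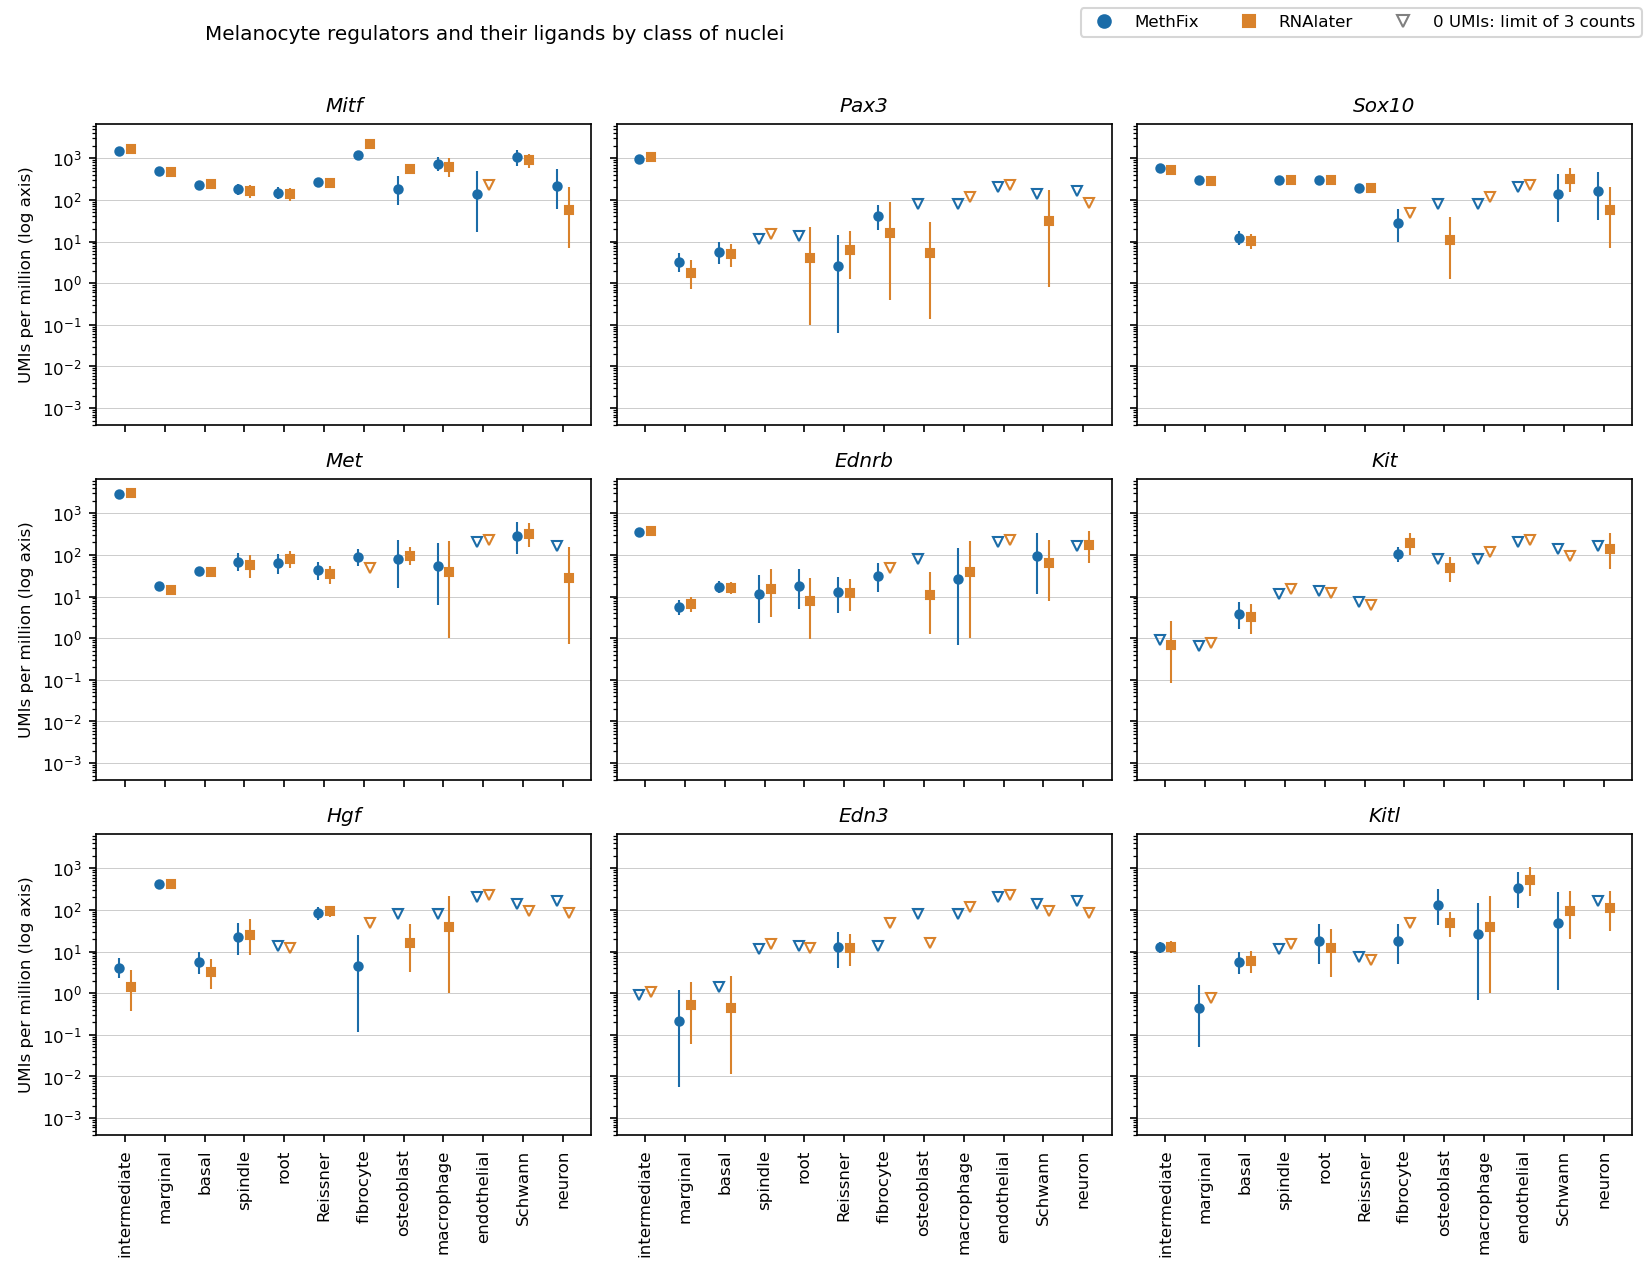
CPM (log axis) of each of the 9 genes in 12 classes of nuclei in MethFix (circles) and RNAlater (squares). Bars are exact 95% Poisson intervals, open triangles mark classes with 0 UMIs at the limit of 3 counts, and the pericyte and motile ciliated classes, named in MethFix only, are left out. Pax3, Met and Ednrb stand apart in intermediate nuclei and Hgf in marginal nuclei, while Mitf and Sox10 are present in many classes.

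Of the transcription factors, Pax3 had nearly all of its UMIs in intermediate nuclei. Mitf had 59.5% and 61.7% of its UMIs there in MethFix and RNAlater, and Sox10 50.7% and 51.7%. Mitf and Sox10 were also found at substantial levels in other classes. Pax3, a paired box factor of the neural crest (ENSMUSG00000004872.15, GRCm38 chr1:78101267-78197134, minus strand), stood at 979.9 CPM (947 to 1014) in MethFix intermediate nuclei and 1049.6 (1012 to 1088) in RNAlater. Intermediate nuclei held 95.9% and 99.2% of its UMIs in kept nuclei, against 28.1% and 27.0% of all UMIs. A Pax3 UMI was found in 88.5% and 95.4% of intermediate nuclei. In marginal nuclei it stood at 3.23 and 1.77 CPM, from 15 and 7 UMIs, and in basal nuclei at 5.69 and 4.97. No Pax3 UMI was found in spindle nuclei of either library, and root nuclei held 0 and 1 UMI. At the limit of 3 counts used for a sum of 0, spindle nuclei allow up to 11.4 and 15.4 CPM. This limit lies below the upper end of the exact interval. The Pax3 level of marginal nuclei was 0.330% and 0.169% of the intermediate level, beside marker ranges that begin at 0.449% and 0.243%. Fibrocyte nuclei of MethFix held 9 Pax3 UMIs, 40.7 CPM, in 4 of 88 nuclei, and those of RNAlater held 1. The motile ciliated nuclei of MethFix held 7 UMIs, 184 CPM (73.9 to 378), in 3 of 9 nuclei. Unnamed nuclei held 96 Pax3 UMIs in MethFix, 147 CPM (119 to 179) and 2.78% of its UMIs, and none in RNAlater.

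Mitf, the basic helix-loop-helix factor at the centre of the melanocyte programme (ENSMUSG00000035158.15, GRCm38 chr6:97807052-98021349, plus strand), stood at 1525 CPM (1484 to 1568) and 1655 (1608 to 1703) in intermediate nuclei. Marginal nuclei followed at 484 (464 to 504) and 467 (446 to 489). Reissner membrane nuclei had 268 and 254, basal nuclei 225 and 243, spindle nuclei 179 and 164, and root nuclei 149 and 139. The order of these 6 classes was the same in both libraries, but the intervals of Reissner membrane, basal and spindle nuclei overlapped, as did those of spindle and root nuclei. A Mitf UMI was found in 89.0% of intermediate and 74.9% of marginal nuclei in MethFix, and in 97.7% and 85.4% in RNAlater. Because marginal nuclei were more deeply sequenced, each nucleus was also thinned to 1000 UMIs, which left out 265 and 88 shallower nuclei: the shares were then 67.9% and 36.1% in MethFix and 75.9% and 33.9% in RNAlater.

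The Mitf level of marginal nuclei was 31.7% (30.4 to 33.1) of the intermediate level in MethFix and 28.2% (26.9 to 29.5) in RNAlater, where the highest of the 4 pigment markers had 10.7% and 5.80%. In basal nuclei it was 14.7% in both, inside the range of the pigment markers there. Spindle nuclei had 11.8% and 9.90%, beside a highest marker, Mlana, at 5.90% (0.149 to 32.9) and 14.6% (1.77 to 52.9) from 1 and 2 UMIs. Root nuclei had 9.80% and 8.40%, beside a highest marker at 14.0% (Mlana, 2 UMIs) and 9.68% (Kcnj13, 5 UMIs). In Reissner membrane nuclei it was 17.5% and 15.3%, beside Mlana at 19.5% and 17.6% from 5 and 6 UMIs. In these 3 classes the order of Mitf and the highest marker is therefore not settled. Of these 5 classes, marginal nuclei had the highest percentage in both libraries.

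The intermediate, marginal, basal, spindle, root and Reissner membrane classes are called epithelial here for short, although intermediate cells are melanocytes. Outside these classes Mitf also reached high levels in small classes. Fibrocyte nuclei had 1195 (1055 to 1349) and 2234 (1881 to 2635) CPM, from 88 and 17 nuclei. The fibrocyte and osteoblast names covered different nuclei in the libraries, and with both classes pooled (106 and 80 nuclei) Mitf stood at 1048 and 979.9. Schwann cell nuclei, 11 and 10 in number, had 1045 (655 to 1582) and 889 (591 to 1285). Macrophage nuclei, 22 and 12 in number, had 741 (493 to 1071) and 633 (362 to 1028). UMIs counted per gene do not separate the alternative starts of Mitf, so a level in these classes is not the level of the melanocyte form. The opposite strand within Mitf carries an annotated processed pseudogene, Gm15531, and no member other than Mitf overlapped a gene on the opposite strand.

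The start region of Mitf that held a full cAMP response element is shown because cAMP signalling is a known route to Mitf in melanocytes. In RefSeq's promoter table (GRCm38.p6), 7 of the 9 genes had an entry, Pax3 and Sox10 being without one, and the 250 bases before each start were searched on both strands for the cAMP response element TGACGTCA, the E-boxes CATGTG and CACGTG, and the SOX letters ACAAAG and ACAATG. The element lay 153 bases before the third Mitf start, in a window at chr6:97991533-97991782 on the plus strand that overlaps no annotated exon (capitals mark the match).
Mitf, before the third start: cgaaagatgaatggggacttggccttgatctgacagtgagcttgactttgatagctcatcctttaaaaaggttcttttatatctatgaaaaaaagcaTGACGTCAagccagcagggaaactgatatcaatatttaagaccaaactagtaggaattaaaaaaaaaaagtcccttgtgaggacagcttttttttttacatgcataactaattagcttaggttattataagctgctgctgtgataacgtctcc
Of the 32544 windows of this length in the table, 1.55% held the element. The match is a description of these letters, not a binding site. Sequence is shown only for windows with a match. The windows of Kit, Ednrb, Kitl and Edn3 held none of the letters searched. Nor did those of the first and second Mitf starts and of the second Hgf start. Over all windows, the share with a given motif of the search ran from 1.55% to 16.5%, and an excess of matches in these genes was not tested.

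Sox10, an HMG box factor of the neural crest (ENSMUSG00000033006.9, GRCm38 chr15:79154908-79165240, minus strand), was found in all 6 epithelial classes, at a low level in basal nuclei. It stood at 571 CPM (546 to 598) and 528 (501 to 555) in intermediate nuclei. Marginal nuclei had 303 (287 to 319) and 284.5 (268 to 302), spindle nuclei 301 and 297, and root nuclei 299 and 294. Spindle and marginal nuclei differed by a log2 ratio of -0.01 (-0.35 to 0.32) and 0.06 (-0.35 to 0.44), so a difference between them was not detectable at this depth. Reissner membrane nuclei had 192 and 198, and basal nuclei 12.3 and 10.4, the lowest of the 6 epithelial classes in both libraries.

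The Sox10 level of marginal nuclei was 53.0% and 53.9% of the intermediate level, and that of Reissner membrane nuclei 33.6% and 37.6%. Spindle nuclei had 52.7% and 56.3%, root nuclei 52.3% and 55.7%, and basal nuclei 2.16% and 1.97%. Mlana, the highest marker in Reissner membrane nuclei, had 19.5% (6.34 to 45.5) and 17.6% (6.45 to 38.2) there. These intervals include the Sox10 values, so the order of Sox10 and Mlana in that class is not settled. The intervals of Sox10 and Mlana also overlapped in spindle nuclei of RNAlater and root nuclei of MethFix. A Sox10 UMI was found in 78.5% and 87.0% of intermediate nuclei, in 65.3% and 75.3% of marginal nuclei and in 3.19% and 3.64% of basal nuclei.

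**Figure D2:**
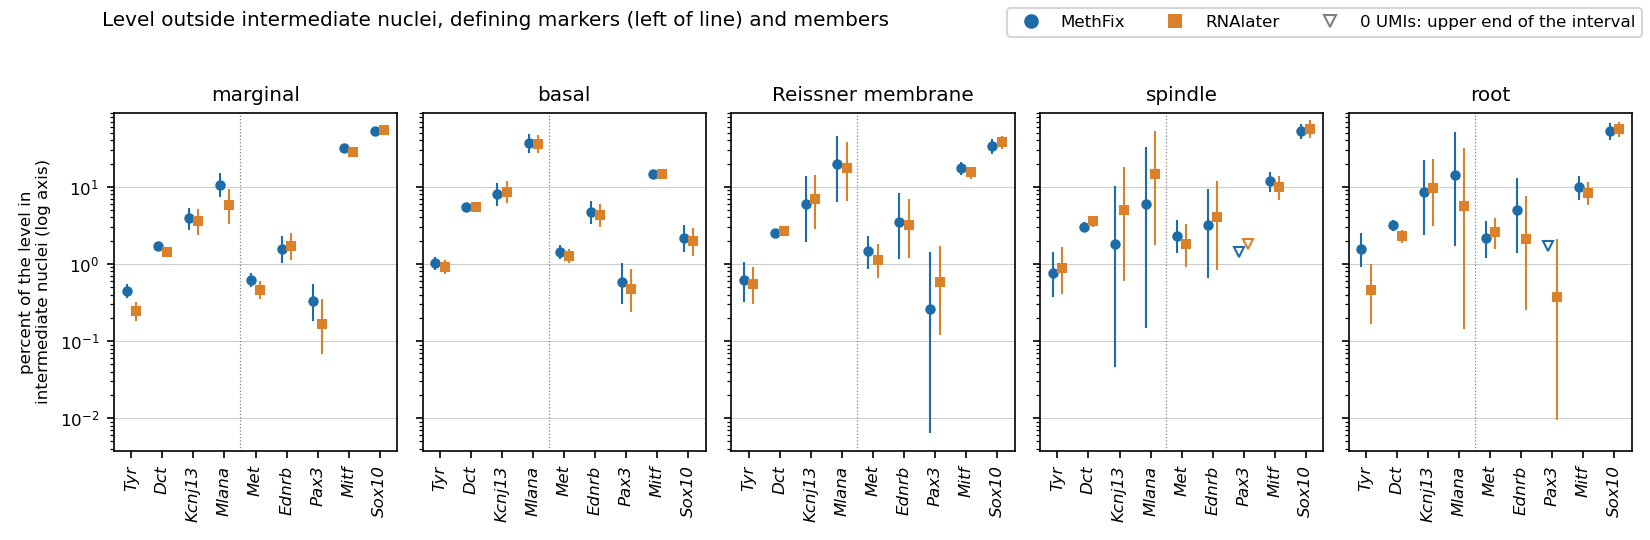
Level of the 4 defining intermediate markers (left of the dotted line) and of 5 regulators, as a percentage of the level in intermediate nuclei (log axis), in 5 other classes of MethFix (circles) and RNAlater (squares). Bars are exact 95% Poisson intervals of the class level, and open triangles mark 0 UMIs at the upper end of the interval. By its value Sox10 lies above the markers in every class but basal, and Mitf lies above them in marginal nuclei of both libraries. Mitf also lies above them in spindle nuclei of MethFix, where the highest marker rests on 1 UMI and its interval includes the Mitf value. In Reissner membrane nuclei the Mlana interval, from 5 and 6 UMIs, includes the Sox10 value in both libraries. The markers named the intermediate class, so this is a description.

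Within single nuclei, Mitf, Pax3 and Sox10 were found together in 63.5% (60.1 to 66.7, exact binomial interval) of MethFix and 81.2% (77.6 to 84.5) of RNAlater intermediate nuclei. In marginal nuclei this was 0.556% and 0.892%, from 6 nuclei in each library, while Mitf and Sox10 without regard to Pax3 were found together in 51.4% and 64.5%. Marginal nuclei with both Mitf and Sox10 thus mostly held no Pax3 UMI.

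Of the 3 receptors, Met had the highest share of intermediate nuclei with a UMI. Met, the HGF receptor tyrosine kinase (ENSMUSG00000009376.15, GRCm38 chr6:17463800-17573980, plus strand), stood at 2946 CPM (2888 to 3004) and 3083 (3019 to 3149) in intermediate nuclei. A Met UMI was found in 838 of 854 (98.1%) and in 522 of 522 nuclei (100%, exact binomial interval from 99.3%), with a median of 10 and 16 UMIs per nucleus. In marginal nuclei Met stood at 18.3 and 14.2 CPM, in basal nuclei at 42.2 and 39.3, in Reissner membrane nuclei at 42.9 and 34.8, in spindle nuclei at 68.6 and 56.3 and in root nuclei at 63.4 and 79.4. As a percentage of the intermediate level these lie between 0.460% and 2.57%. Schwann cell nuclei had 285 and 317 CPM, from 6 and 10 UMIs. The motile ciliated nuclei of MethFix had 525, from 20 UMIs in 5 of 9 nuclei.

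The Met window in RefSeq (GRCm38.p6) held the E-box CACGTG, the letters that MITF and related factors can bind, found in 6.03% of all windows. It lies 126 bases before the RefSeq start, where GENCODE already annotates exons of Met, and only the 30 bases around it, chr6:17463819-17463848 on the plus strand, are shown (capitals mark the match).
Met, around the E-box: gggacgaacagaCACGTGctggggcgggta

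Unnamed nuclei also carried Met, with 477 UMIs in MethFix and 178 in RNAlater. The largest unnamed cluster held 128 and 155 of these, so most in MethFix lay in other unnamed nuclei. All unnamed nuclei of MethFix together also held 96 Pax3 and 207 Sox10 UMIs. The largest unnamed cluster, 38 nuclei in MethFix (1.13% of kept nuclei) and 35 in RNAlater (1.51%) with 33 barcodes in common, had 1486 (1240 to 1767) and 1551 (1317 to 1816) Met CPM. This is a level between intermediate nuclei and every other named epithelial class. Its nuclei held no Pax3 or Sox10 UMI, 1 and 0 Ednrb UMIs, and Tyr at 69.7 and 40.0 CPM. The basal markers did not move together. Cldn11, a tight junction claudin, stood at 511 and 420.3 against 1231 and 1295 in basal nuclei. Cacna1e, Sox8 and Fat2 were also lower, with Fat2 at 34.8 and 10.0 against 935 and 955. Nr2f2 was higher, at 592 and 600 against 351 and 380. Tbx18 stood at 464 (332 to 632) and 420 (303 to 568) against 356 and 367. Tenm2 (5909 and 6255), Cdh6 (3204 and 3022), Robo2 and Dcc were among the genes that led the cluster, which was given no name. It was singled out after its values were seen.

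Ednrb, a G protein coupled receptor of endothelins (ENSMUSG00000022122.14, GRCm38 chr14:103814625-103844402, minus strand), followed the same classes at a lower number of UMIs. It stood at 359 CPM (339 to 379) and 382 (359 to 405) in intermediate nuclei. In basal nuclei it stood at 17.1 and 16.3, in Reissner membrane nuclei at 12.6 and 12.3, and in marginal nuclei at 5.61 and 6.59. An Ednrb UMI was found in 59.6% and 76.6% of intermediate nuclei and, after thinning, in 26.4% and 29.9%. Met and Ednrb were found in the same nucleus in 59.4% and 76.6% of intermediate nuclei. Because Met was found in 98.1% and 100% of these nuclei, this share follows from the Ednrb share alone. Neuron nuclei held 0 and 6 Ednrb UMIs, from 6 and 18 nuclei.

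Kit, the receptor tyrosine kinase for KIT ligand (ENSMUSG00000005672.12, GRCm38 chr5:75574916-75656722, plus strand), was nearly undetected in intermediate nuclei. It was found in 0 of 854 MethFix intermediate nuclei and in 2 of 522 (0.383%) in RNAlater. At the limit of 3 counts the MethFix value allows a share of up to 0.351%, and the exact interval reaches 0.431%. Over the intermediate class Kit had 0 UMIs in MethFix, which allows up to 0.886 CPM at the same limit, and 0.703 CPM (0.0851 to 2.54) in RNAlater. No Kit UMI was found in marginal, spindle, root or Reissner membrane nuclei of either library. Basal nuclei held 8 and 7 UMIs, 3.79 and 3.16 CPM.

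Most Kit UMIs lay in fibrocyte and osteoblast nuclei. With these classes pooled, 23 and 21 of the 33 and 35 UMIs in kept nuclei were there, at 89.0 (56.4 to 133) and 83.6 (51.8 to 128) CPM, in 14 of 106 and 12 of 80 nuclei. In the 16 nuclei that were named fibrocyte in both libraries, Kit stood at 214 (107 to 383) and 195 (101 to 341) CPM, from 11 and 12 UMIs. Mitf stood there at 2332 and 2293, and Slc4a11, a fibrocyte marker, at 3789.7 and 4228. In the 47 nuclei named fibrocyte in MethFix and osteoblast in RNAlater, Kit stood at 69.0 (29.8 to 136) and 56.0 (24.2 to 110), from 8 UMIs in each library. The Kit intervals of these sets of nuclei overlapped in both libraries. Mitf stood in the 47 nuclei at 811 and 679, and Slc4a11 at 17.3 and 14.0. Coch stood at 3867 and 3789 in the 16 nuclei and at 1976 and 2136 in the 47. Otos stood at 661 and 667 in the 16 nuclei and at 25.9 and 28.0 in the 47. Slc4a11, Coch and Otos were among the markers that named fibrocytes, so their levels are partly set by the naming. Mast cells also express Kit and Mitf, and their markers were near 0 over all kept nuclei: Cpa3 had 2 and 4 UMIs, and Fcer1a, Ms4a2, Tpsb2 and Cma1 had none. Which nuclei held the Cpa3 UMIs was not examined, and the source of the Kit and Mitf UMIs was not tested. Neuron nuclei of RNAlater held 5 Kit UMIs, all in 1 nucleus.

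Among the ligands, Hgf lay mainly in marginal nuclei. Hgf, hepatocyte growth factor (ENSMUSG00000028864.7, GRCm38 chr5:16553495-16620152, plus strand), stood at 414 CPM (396 to 433) and 431 (411 to 452) in marginal nuclei, which held 92.5% and 95.8% of its UMIs in kept nuclei. An Hgf UMI was found in 68.1% and 82.0% of marginal nuclei and, after thinning, in 30.5% and 33.6%. In intermediate nuclei it was found in 1.41% and 0.766%, at 4.13 and 1.41 CPM. Basal nuclei had 5.69 and 3.16 CPM and root nuclei none, which allows 13.6 and 11.9. Reissner membrane nuclei had 83.3 (57.3 to 117) and 92.1 (67.2 to 123), the second level among the epithelial classes, and spindle nuclei 22.9 and 25.6 from 6 and 5 UMIs. Marginal nuclei were above Reissner membrane nuclei by a log2 ratio of 2.31 (1.82 to 2.86) and 2.23 (1.80 to 2.69).

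The window before the first of the 2 RefSeq starts of Hgf, at chr5:16553245-16553494 on the plus strand of GRCm38.p6, overlaps no annotated exon and is shown because Hgf is the member with the marginal pattern. It held none of the SOX letters searched, and 1 E-box CATGTG, read as CACATG on this strand, 19 bases before the start (capitals mark the match).
Hgf, before the start: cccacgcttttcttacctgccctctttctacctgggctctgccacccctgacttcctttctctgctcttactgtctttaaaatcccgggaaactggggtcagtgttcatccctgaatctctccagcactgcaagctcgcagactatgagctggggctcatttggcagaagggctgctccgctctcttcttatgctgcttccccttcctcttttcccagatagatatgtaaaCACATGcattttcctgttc
Of all windows, 12.3% held this E-box.

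Edn3, endothelin 3 (ENSMUSG00000027524.9, GRCm38 chr2:174760619-174784042, plus strand), was close to the limit of detection. All kept nuclei together held 6 and 10 UMIs. Of these, 5 and 6 were in Reissner membrane nuclei, 12.6 (4.10 to 29.5) and 12.3 (4.51 to 26.7) CPM, in 5 of 155 and 5 of 154 nuclei. Marginal nuclei held 1 and 2 UMIs, and the log2 ratio of Reissner membrane to marginal nuclei was 5.87 (2.71 to 11.43) and 4.60 (2.12 to 7.94). Both ratios rest on fewer than the 10 UMIs over both groups that a ratio needs to count. They come from libraries that share most barcodes, so they are a description only. Intermediate nuclei held none, which allows up to 0.886 and 1.05 CPM. Spindle, root, fibrocyte and endothelial nuclei also held none, but these classes are small. Their limits were 11.4 and 15.4 CPM (spindle), 13.6 and 11.9 (root), 13.6 and 47.5 (fibrocyte), and 205 and 227 (endothelial). A level like that of Reissner membrane nuclei could thus go undetected in them.

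Kitl, KIT ligand (ENSMUSG00000019966.17, GRCm38 chr10:100015630-100100416, plus strand), was sparse and had no single main class. Intermediate nuclei held 44 and 37 of its 96 and 88 UMIs, 13.0 CPM in both (9.44 to 17.4 and 9.15 to 17.9), in 3.51% and 4.41% of nuclei. Basal nuclei had 5.69 and 5.88 CPM, a log2 ratio to intermediate nuclei of -1.19 (-2.25 to -0.25) and -1.15 (-2.18 to -0.20). Marginal nuclei held 2 and 0 UMIs. The highest level was in the small endothelial class, which had 341 (111 to 796) and 529.5 (213 to 1091) CPM, from 5 and 7 UMIs in 3 of 10 and 4 of 6 nuclei. Pooled fibrocyte and osteoblast nuclei had 34.8 (15.9 to 66.1) and 35.8 (16.4 to 68.1).

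Set against their receptors, the 3 ligands gave 3 different pictures. For HGF and MET, the ligand was in marginal and the receptor in intermediate nuclei: Hgf was 100.2-fold (59.6 to 184) and 307-fold (119.6 to 1127) higher in marginal nuclei, a log2 ratio of 6.65 and 8.26, and Met was lower there by a log2 ratio of -7.33 (-7.65 to -7.02) and -7.76 (-8.17 to -7.39). Hgf and Met were found in the same marginal nucleus in 5.83% and 6.98%, beside 7.31% and 8.02% of marginal nuclei with any Met UMI. Since Hgf was found in 68.1% and 82.0% of marginal nuclei, most of those with Met would hold both genes without a link between them. Whether the overlap exceeds this was not tested. For endothelin 3 and EDNRB, the receptor was in intermediate nuclei and the few ligand UMIs were mainly in Reissner membrane nuclei. The small spindle, root, fibrocyte and endothelial classes, without an Edn3 UMI, allow a similar or higher Edn3 level. For KIT ligand and KIT, the receptor was not detected or nearly so in intermediate nuclei, and the ligand was found there at a low level.

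**Figure D3:**
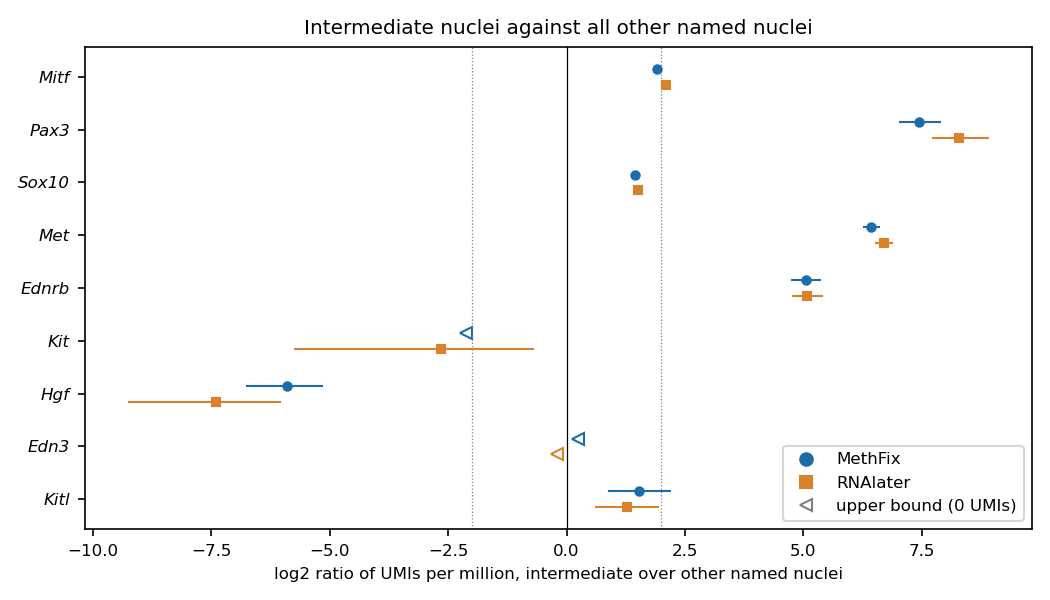
Log2 ratio of CPM in intermediate nuclei over all other named nuclei for the 9 genes in MethFix (circles) and RNAlater (squares), with exact 95% conditional intervals. Open triangles are upper bounds for 0 UMIs set to 3 counts, and dotted lines mark a log2 ratio of 2 and -2. Pax3, Met and Ednrb lie right of 2, Mitf lies at the line, and Hgf and Kit lie left of -2.

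Over the whole intermediate class against all other named nuclei, a gene was counted as higher at a log2 ratio of at least 2 and as lower at -2 or below. Of the 8 members with at least 10 UMIs, 3 were higher in MethFix (Pax3, Ednrb and Met) and 4 in RNAlater, with Mitf added, beside 4% and 3.95% of all genes tested. The log2 ratios were 7.45 (7.03 to 7.91) and 8.29 (7.72 to 8.92) for Pax3, 6.43 (6.26 to 6.61) and 6.70 (6.51 to 6.90) for Met, and 5.05 (4.73 to 5.38) and 5.08 (4.76 to 5.42) for Ednrb. Mitf stood on either side of the line, at 1.92 (1.85 to 1.98) and 2.11 (2.04 to 2.17), and Sox10 below it at 1.45 (1.36 to 1.55) and 1.50 (1.39 to 1.61). Kitl was at 1.53 (0.87 to 2.21) and 1.28 (0.59 to 1.96), but at -0.13 (-1.72 to 1.33) in MethFix without the barcodes shared by the libraries. Without them Mitf was at 1.22 and Pax3 at 5.65 in MethFix.

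In each library 2 members, Kit and Hgf, were lower, beside 13.9% and 13.2% of all genes tested. Hgf was at -5.90 (-6.77 to -5.15) and -7.39 (-9.27 to -6.04). Kit was 4.36-fold lower in MethFix with its 0 UMIs set to 3 counts, a setting that leaves out the counting error of the other nuclei. Its call as lower in MethFix rests on this setting. In RNAlater Kit was at a log2 ratio of -2.66 (-5.76 to -0.69) from 2 UMIs. The median log2 ratio of the 8 members was 1.73 and 1.80, against -0.20 and -0.19 over all genes tested. Scaling by edgeR's TMM factors or DESeq2's size factors moved every ratio of this comparison up by 0.18 and 0.17 in MethFix and by 0.13 and 0.15 in RNAlater, which puts Mitf in MethFix above the line and the Kit bound in MethFix short of it.

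Against marginal nuclei alone, 1 of 7 tested members was higher in marginal nuclei (Hgf), beside 9.1% and 9.2% of genes, and 4 were lower (Pax3, Ednrb, Met and Kitl), beside 8.49% and 8.29%. Against basal nuclei, none of 7 was higher in basal nuclei, beside 9.67% and 10% of genes, and 5 were lower (Mitf, Pax3, Sox10, Ednrb and Met), beside 6.54% and 6.67%. Mitf and Sox10 thus passed the line against basal but not against marginal nuclei. The log2 ratio of marginal to intermediate nuclei was -1.66 and -1.83 for Mitf and -0.92 and -0.89 for Sox10, and that of basal to intermediate nuclei -2.76 and -2.77 for Mitf and -5.54 and -5.67 for Sox10.

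The intermediate nuclei differed among clusters in the levels of some of these genes. They fell into 3 clusters per library, of 233 to 328 nuclei in MethFix and 149 to 222 in RNAlater, and clustering left the 9 genes out. Mitf ranged over the clusters from 999 to 1708 CPM in MethFix and from 1595 to 1810.4 in RNAlater. Met ranged from 2396 to 3180.03 and from 3046 to 3159.9, and Ednrb from 325 to 398 and from 310.4 to 456. The intervals of the clusters overlapped for Met in RNAlater and for Ednrb in MethFix. The MethFix cluster that was lowest in Mitf, Met and Tyr was also the smallest and shallowest, with a median of 2334 UMIs against up to 4686.5, and Sox10 was highest there, at 701. Of the other naming markers, Dct was also highest there, at 22307 CPM against 20346 and 22161. Mlana was highest too, at 88.8 against 76.3 and 37.6, and Kcnj13 lay between, at 198 against 130 and 318. That cluster also had the highest levels of Kcne1, a marginal marker, at 82.5 CPM against 43.7 and 49.1. Cldn11, a basal marker, stood there at 47.6 against 26.8 and 24.5, and Hgf at 14.3, from 9 UMIs, against 0.653 and 3.27. The parts of depth and of RNA from other classes in these differences were not tested.

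Related genes of the same pathways were described by lists chosen with earlier results of these data known. Their counts stand beside 4% and 3.95% of all genes higher and 13.9% and 13.2% lower, and their medians beside -0.20 and -0.19. Among 12 targets of MITF and SOX10, 11 and 10 had enough UMIs in MethFix and RNAlater, 8 and 7 of them were higher in intermediate nuclei (all genes 4% and 3.95%), and the median log2 ratio was 3.67 and 3.98. Trpm1, a cation channel of melanocytes, was at 5.48 (4.20 to 7.13) and 5.00 (3.97 to 6.25). Slc45a2 was at 5.04 and 5.10, and Gpr143, a melanosome G protein coupled receptor, at 4.69 and 4.93. Some pigment genes had few UMIs: Tyrp1 had 1 in intermediate nuclei of each library. Pmel, counted as higher in MethFix, had 7 against 3 there (2.47, 0.34 to 5.05) and 2 against 4 in RNAlater. Oca2, lower in MethFix only, had 1 and 5 against 18 and 24 in the other named nuclei.

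Of 9 further transcription factors of melanocytes, 5 had enough UMIs, and 1 was higher (all genes 4% and 3.95%) and 2 were lower (all genes 13.9% and 13.2%) in both libraries, with a median log2 ratio of 1.18 and 1.12. Tfap2a, the factor higher, stood at 17.4 and 23.2 CPM in intermediate nuclei against 0.249 and 0.134 elsewhere, a log2 ratio of 6.13 (4.21 to 9.21) and 7.43 (4.90 to 12.76). Lef1, a WNT effector, was lower at -5.18 and -5.12, from 1 UMI in intermediate nuclei of each library, and Sox9, an HMG box factor, at -3.87 and -4.07. The relatives of MITF did not pass the line: Tfeb was at 0.23 and 0.46, Tfe3 at -0.06 and 0.09, and Tfec at -0.02 and -0.20 from few UMIs.

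**Figure D4:**
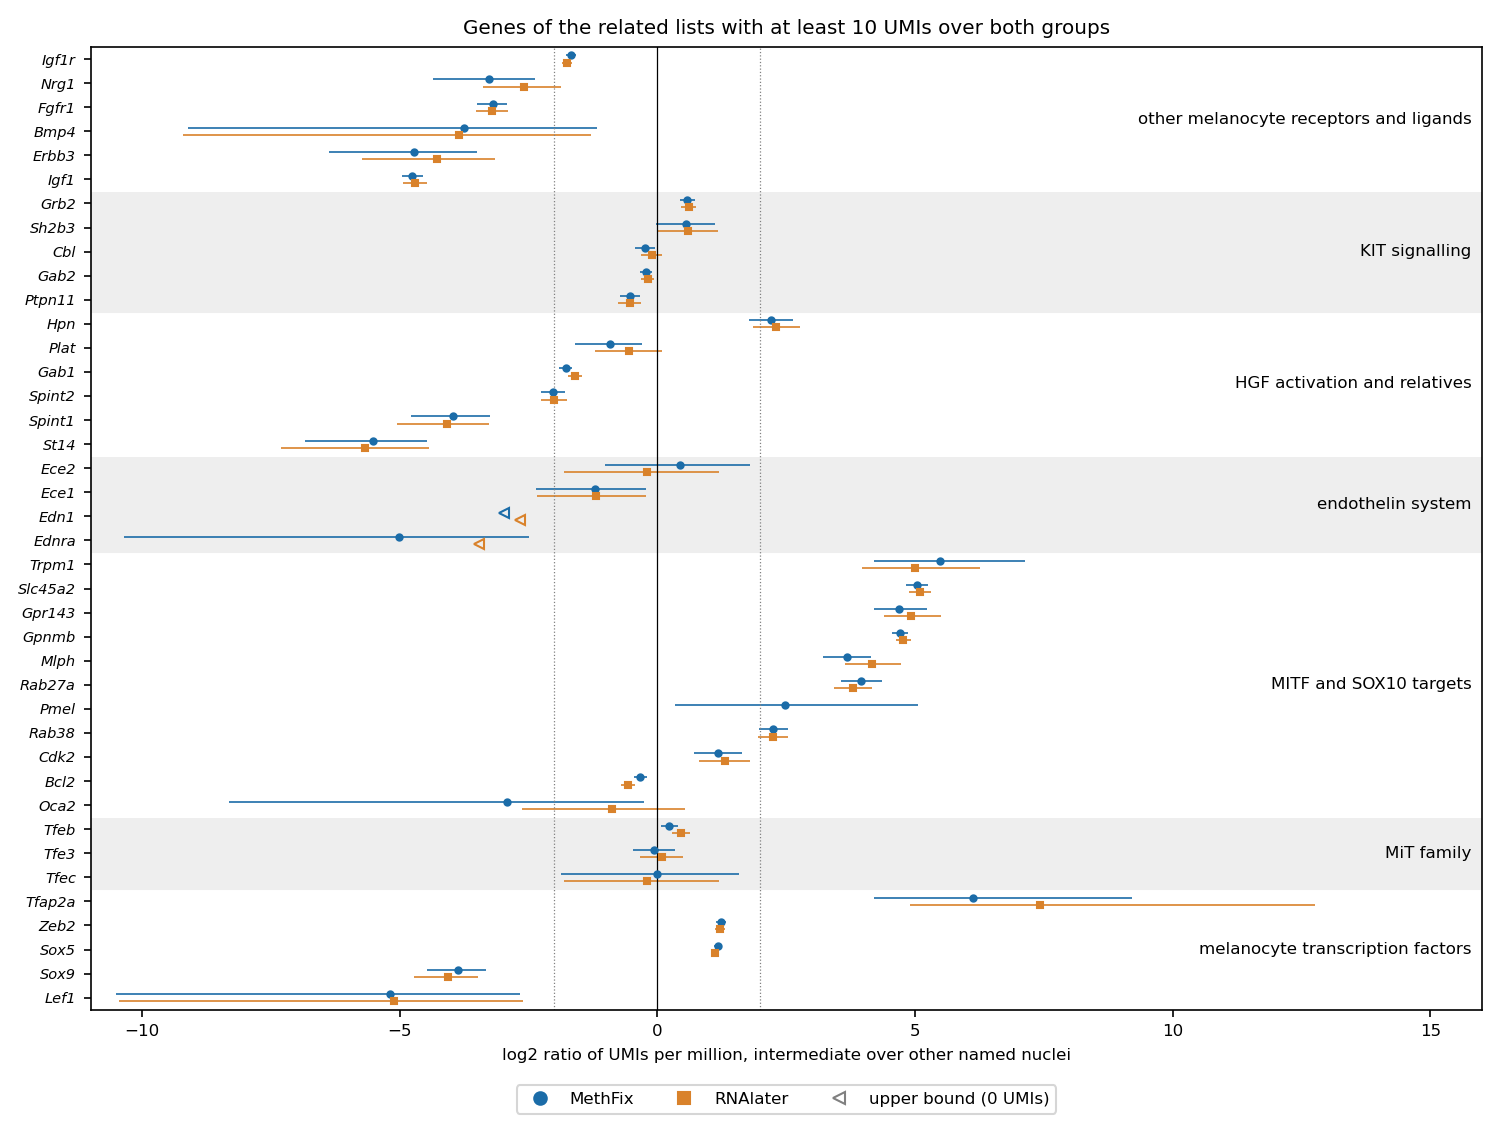
Log2 ratio of CPM in intermediate nuclei over all other named nuclei for genes of 7 related lists, in MethFix (circles) and RNAlater (squares), with exact 95% conditional intervals. Open triangles are upper bounds for 0 UMIs set to 3 counts, and dotted lines mark 2 and -2. Targets of MITF and SOX10 lie mainly to the right, and other receptors and ligands to the left.

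Other genes of the endothelin system had few UMIs in intermediate nuclei. Of its 4 genes with enough UMIs, 2 were lower in each library (all genes 13.9% and 13.2%), with a median of -2.10 and -1.93. Edn1, endothelin 1, had no UMI in intermediate nuclei and 56 and 50 in the other named nuclei (50 and 44 of them marginal), at least 7.87-fold and 6.37-fold lower. Ednra, the endothelin receptor A, had 1 and 0 against 77 and 87, and Ece1, the converting enzyme, was at -1.21 and -1.20.

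Of the 10 genes that activate HGF, inhibit its activation or act near MET, 6 had enough UMIs, of which 1 was higher (all genes 4% and 3.95%) and 3 and 2 were lower (all genes 13.9% and 13.2%), with medians of -1.90 and -1.80. Hpn, hepsin, a membrane serine protease that can activate HGF, was higher in intermediate nuclei, at 41.6 and 43.2 CPM and a log2 ratio of 2.20 (1.78 to 2.62) and 2.31 (1.86 to 2.77). St14, matriptase, another such protease, was lower at -5.52 (-6.84 to -4.47) and -5.67 (-7.30 to -4.44). Spint1, an inhibitor of these proteases, was lower at -3.97 and -4.09. Spint2, its relative, was at -2.03 in MethFix and just short of the line in RNAlater. In marginal nuclei, St14 stood at 151 and 153 CPM and Spint1 at 110.4 and 113.

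The 5 KIT signalling genes had medians of -0.23 and -0.11, near those of all genes (-0.20 and -0.19), and none passed the line, as was so for most genes. Their largest ratios were 0.58 and 0.60 for the adaptor Grb2, 0.55 and 0.60 for the adaptor Sh2b3, and -0.53 and -0.54 for the phosphatase Ptpn11. Among other receptors and ligands of melanocytes, 5 of 6 with enough UMIs were lower in intermediate nuclei in each library (all genes 13.9% and 13.2%), with medians of -3.51 and -3.53. They were Erbb3, the neuregulin receptor (-4.73 and -4.28), Igf1, insulin-like growth factor 1 (-4.75 and -4.70), Fgfr1 (-3.20 in both), Nrg1 and Bmp4. Mc1r, the melanocortin receptor, had no UMI in any named nucleus.

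For each member with at least 50 UMIs in both libraries, the genes with the likest pattern were taken by Pearson's r of log2(CPM + 10) over 12 points, 6 epithelial classes in each library, among 9601 genes. The points come from largely the same barcodes, so r is a description. Ednrb was likest to Tyr (r = 0.997), followed by Nrp2 and Nek6. Tyr was among the markers that named the intermediate class, so its pattern is partly set by the naming. Met was likest to Slc24a2 (0.991), Col5a3 and Nek6, and Pax3 to Gm26688 (0.997), Mamdc2 and Rasa3. Mitf was likest to P3h2 (0.990), Syngr1 and Dusp6, and Sox10 to Gm10863 (0.968), Man2a2 and Bicd1. Hgf was likest to Cacnb2 (0.985), Ppp1r21 and Igf1os, and Kitl, with few UMIs, to Zfp335os (0.958), Slc16a10 and Luc7l2.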

How the data were processed

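The authors deposited 1 matrix per library of raw UMI counts, with no normalization. The submitters' processing notes name Cell Ranger 3.0.1 and GRCm38. The study's methods name default settings and the mm10 reference of 10x Genomics, and do not state whether intronic reads were counted. The 9 genes, the lists and the alternatives were chosen with earlier results of these data known.

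A barcode entered the analysis with 200 or more genes, no more than 8000 UMIs and no more than 10% of UMIs from mitochondrial genes, which left 3596 in MethFix and 2329 in RNAlater. For clustering, a gene had to be seen in 3 nuclei or more. Scrublet in scanpy 1.11.5 (expected rate 0.1) removed 224 and 18 doublets in MethFix and RNAlater. In RNAlater this is 0.773% of the nuclei it saw. Each library was clustered with leidenalg 0.10.2 on 4000 variable genes, 30 components and 10 neighbours, at a resolution of 1 (MethFix) and 1.5 (RNAlater). The genes of the lists, other than markers, were left out of clustering. A cluster was named where its marker score was at least 1 and at least 0.75 of the best score of that class, and clusters with markers of several classes were split once. These naming rules were set after looking at the clusters. Other named nuclei are all named nuclei that are not intermediate.

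UMIs were summed per class and divided by the class total. Intervals are exact 95% intervals (Poisson, Clopper-Pearson binomial, and conditional binomial for ratios). A sum of 0 was set to 3 counts, and such a ratio is given as a bound that leaves out the counting error of the other group. The limit that 0 UMIs or 0 nuclei allow is also that of 3 counts, which lies below the upper end of the exact interval. Ratios need at least 10 UMIs over both groups to count. UMIs are molecules, but intervals and limits cover counting error only. For single genes of the related lists, the 3 with the largest absolute ratio among those with at least 50 UMIs are named, and others with values were added after seeing them. Asip has no entry under that symbol. Nuclei were thinned to 1000 UMIs with a fixed seed. Positions are from GENCODE M21 and sequences from RefSeq. Scaling factors came from edgeR 4.0.16 and DESeq2 1.42.0 in R 4.3.3, and intervals from scipy 1.17.1 in Python 3.11.15, with pandas 2.3.3 and numpy 2.4.6, and the ratio step was tested on simulated data. No count test was run, because the libraries share most barcodes.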

Additional observations from a re-analysis of the deposited data

Results flagged for a closer look

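Barcodes with more than 8000 UMIs, 401 in MethFix and 373 in RNAlater, were left out of the classes, and 8 of the 9 genes had UMIs there above the limit that a count of 0 allows (0.492 and 0.679 CPM). Among these barcodes Mitf stood at 590.4 and 536 CPM, Pax3 at 231 and 136, and Sox10 at 335 and 229. Met stood at 667 and 404, Ednrb at 84.3 and 68.4, and Kit at 2.95 and 3.40. Of the ligands, Hgf stood at 217 and 237 and Kitl at 7.38 and 4.98, while Edn3, at 0.164 and 0.453, was below the limit. Summed over these barcodes, the intermediate marker Tyr stood at 1023 and 765 and Kcnq1, a marginal potassium channel, at 1513 and 1804. Whether single barcodes held both was not measured, and the part of these markers in the values was not tested.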

How the results depend on the processing

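No paired analysis was possible because there is 1 library per method and no test. Of 258 log2 ratios of intermediate to other named nuclei recomputed under alternatives, 220 stayed within their interval and 38 moved, and of 54 each for marginal and basal to intermediate nuclei, 48 and 52 stayed. None of those past the line changed sign, but Kitl in MethFix went from 1.53 to -0.13 without the shared barcodes, and Hgf in basal over intermediate nuclei of MethFix from 0.46 to -2.30 with classes set from each barcode's marker UMIs. RNAlater without the shared barcodes gave no value, with 0 intermediate nuclei left.

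In MethFix the ratio of Met was 6.23 with no upper UMI limit, 6.64 at a mitochondrial limit of 5%, 6.16 with classes from each barcode's markers, 5.34 without and 6.72 with only the shared barcodes, 5.89 with clusters named at 0.7 of the best score, and 5.09 with unnamed nuclei counted among the others. In RNAlater it was 6.91 at the 5% limit, 6.15 with classes from each barcode's markers and 5.89 with unnamed nuclei counted. Over all alternatives Pax3 ranged from 5.65 to 8.12 in MethFix, lowest without the shared barcodes, and from 8.10 to 8.59 in RNAlater. Mitf ranged from 1.22 (without the shared barcodes) to 2.09 in MethFix, and from 2.05 to 2.25 in RNAlater. Ednrb in MethFix was 4.01 without the shared barcodes and 4.26 with unnamed nuclei counted. Hgf in marginal over intermediate nuclei of MethFix was 5.66 with no upper limit, 4.44 with classes from each barcode's markers, and 5.13 without and 7.53 with only the shared barcodes. The bound for Kit in MethFix was -1.63 at the 5% limit and -1.64 both at a resolution of 2 and with the list genes left in clustering.

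The count of lower members in MethFix was 1, Hgf alone, in these 3 settings, without the shared barcodes, with only them, and with TMM or DESeq2 factors. The count of higher members in MethFix was 5 with only the shared barcodes and 6 at a log2 ratio of at least 1. The naming at 0.7 and the counting of unnamed nuclei were chosen after seeing the data. Kit, Edn3 and Kitl each had under 100 UMIs in the kept nuclei of a library, and their intervals are wide.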
